A study of Homo sapiens with 9 samples.

Results

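The response of K562 cells to phorbol ester was measured on 3 of the 9 arrays of the series. K562 is a line from a chronic myeloid leukaemia in blast crisis that keeps erythroid and megakaryocytic features. The array of the K562 culture given 5 nM PMA (phorbol 12-myristate 13-acetate) for 48 h was set against 2 arrays of untreated K562 cells, titled as untreated and as its replicate. No source used here says whether those 2 came from separate cultures, so the spread between them may be technical. Beside these stand 1 array of HEL cells, an erythroleukaemia line, given 5 nM PMA and 1 array of untreated HEL cells. Also used were K562 cells given hemin at 25 µM and at 50 µM (1 array each) and K562 cells given 24 h pulses of DAC, a DNA methylation inhibitor, at 100 nM and harvested 144 h after the first pulse (1 array). Both lines were grown in the same serum-containing medium, and the notes name no vehicle control for PMA. PMA is named there as the inducer of megakaryocytic differentiation.

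Phorbol esters take the place of diacylglycerol and switch on the protein kinase C isoforms that have a diacylglycerol-binding domain. From these the signal runs through RAS guanine-nucleotide exchange factors of the RASGRP family, the MAP kinases ERK and JNK, and NF-kappaB, and it ends on the promoters of early response genes such as EGR1 and the AP-1 subunits. In K562 cells the treatment is a classical model: the cells stop dividing, spread and stick to the dish, and gain surface proteins of platelets and of megakaryocytes, the bone marrow cells that shed platelets.

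All values are log2 intensities, so a difference of 1 is a 2-fold change. A gene was tested where at least 1 K562 array read 5 or more, and 9890 genes were. It was called higher by fold where the PMA array lay above both untreated arrays, exceeded their mean by at least 1 and read at least 5, and called lower by the mirror rule. Where the lower side read under 5, a value that is hard to tell from background, the difference is given as a bound after raising such values to 5 and is written "at least". By this rule 1637 genes (16.6%) were higher and 1803 (18.2%) lower with PMA. The lower side read under 5 for 359 of the higher and 307 of the lower genes. On the values as listed, 651 of the higher and 654 of the lower genes differed by at least 4-fold. For some of these the bound is smaller. The untreated arrays differed from each other by 2-fold or more in 816 genes (8.25%). Their correlation over genes was 0.982, against 0.919 and 0.908 between the PMA array and each of them. The second untreated array correlated as closely with the array of 25 µM hemin (0.986). The median absolute difference was 0.69 for PMA against untreated and 0.31 between the untreated arrays.

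**Figure D1:**
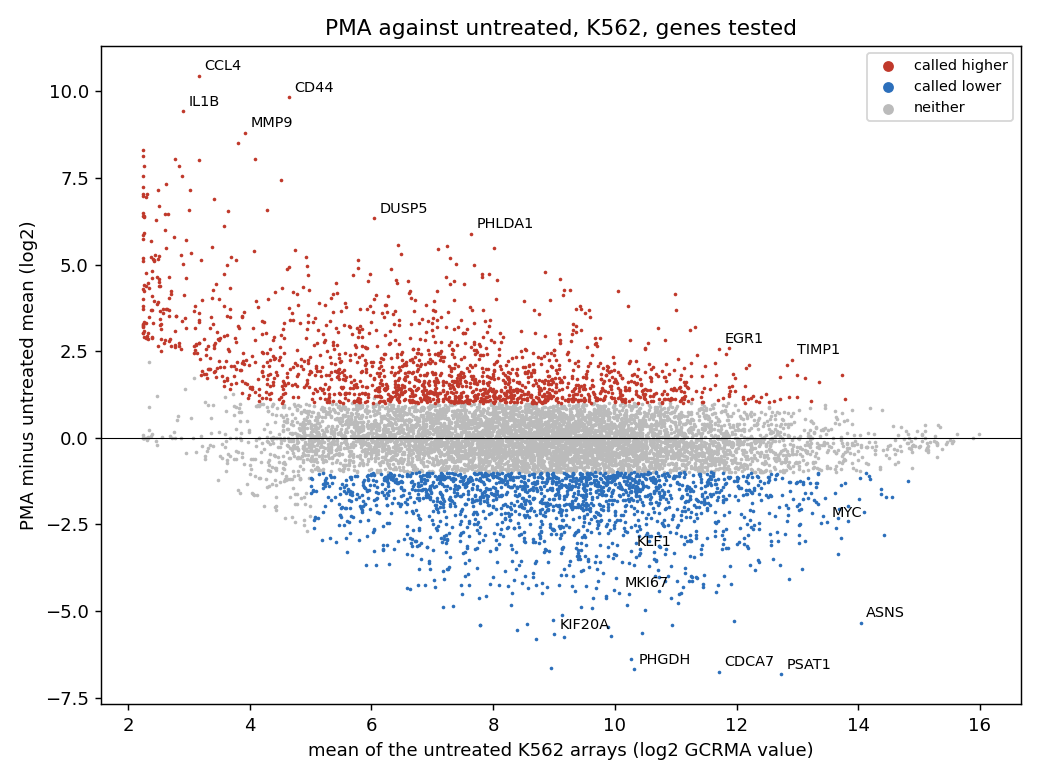
Each point is 1 of the 9890 genes tested, with the mean of the untreated K562 arrays on the horizontal axis and PMA minus that mean on the vertical axis, both log2; red and blue mark genes called higher and lower by fold. Among values as listed, CCL4 stands highest at 10.45, from untreated values under 5, and PSAT1 lowest at -6.83.

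With only 1 PMA array the spread has to come from elsewhere, and limma took it from the untreated pair and from the pair of hemin doses, which are not replicates in a strict sense. At an adjusted p of 0.05 it called 765 genes higher (7.74%) and 899 lower (9.09%), and 1652 of these 1664 were also called by fold. "Rose" and "fell" are used below only for these genes. Limma was run on the values as listed, also those under 5. Where both untreated arrays stood at the lowest value of the table, 2.25, their gap of 0 does not measure variation between them. The calls need both pairs: without either untreated array, or without either hemin array, 0 genes passed in limma, while 2719 to 3184 had an unadjusted p under 0.05 there, against 3598 with all 6 K562 arrays.

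The line showed its erythroid leukaemia markers on all 3 arrays. GATA1, the master factor of both the red cell and the platelet lineage, read 10.84 with PMA, against 10.42 and 9.72 untreated. Its partner TAL1 read 10.05 with PMA, against 9.94 and 10.28. EPOR, HBE1, LMO2 and TFRC were above 5 throughout. Of the lymphocyte markers, 7 of 14 were on the table, and 2 of these (CD3D and CD3G) read 5 or more with PMA, against 1 and 1 untreated. The mean over the 7 was 4.88 with PMA, against 3.95 and 4.30. Of the monocyte and granulocyte markers, 8 of 20 were on the table, and 4 reached 5 with PMA, against 2 and 4 untreated, with a mean of 5.44 against 4.06 and 5.35. CD3D itself, a subunit of the T cell receptor complex, read 12.51 with PMA, against 10.42 and 11.01 in untreated K562 cells, while CD2, CD7, CD79A and CD79B were under 5 on all 3 arrays. The part of other cells in the results was not tested.

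Genes are described by lists of known function. List medians use the values as listed, also those under 5. Every list was chosen with earlier results of these data known, so no list's direction is evidence of its own. Megakaryocyte and platelet genes were mostly higher, but the set was incomplete. Of 30 listed receptors and granule proteins 18 were measured, with 14 higher and 1 lower by fold, a median difference of 2.14 (-0.10 over all genes tested) and 10 that rose in limma. The minimum of 5 sets part of this count: 5 of the 18 reached it on the PMA array alone and so had to differ. With no minimum 24 members had a value, and their median was 1.30. PPBP, the platelet granule chemokine that gives rise to NAP-2, read 12.31 with PMA, against 3.97 and 3.63 untreated, and so rose by at least 7.31 (adjusted p = 0.00462 in limma, on the values as listed). ITGB3, the beta-3 chain of the fibrinogen receptor, read 10.21 with PMA, against 3.66 and 3.63, a rise of at least 5.21. Both genes thus stood near background in either untreated array and well above it with PMA.

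The tetraspanin CD9 rose to 11.96 with PMA, against 5.04 and 3.99 untreated. GP6, the platelet collagen receptor, rose to 10.68, against 6.80 and 6.62. TUBB1, the tubulin of the platelet marginal band, rose to 9.92, against 6.67 and 6.02. For these genes the PMA array was far outside the gap between the untreated arrays. ITGA2B, the alpha chain that pairs with ITGB3, read 10.71 with PMA, against 7.29 and 7.86, and missed the limma threshold (adjusted p = 0.052). MMRN1, which encodes a carrier of factor V in platelet granules, rose by at least 1.66 and the thrombin receptor subunit F2RL2 by at least 1.36. TIMP1, CD63 and SRGN, present at high level before, rose by 2.25, 2.02 and 1.13. The ADP receptor P2RY1 read 7.85 with PMA, against 9.18 and 8.64 untreated (adjusted p = 0.106).

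Other members of the same list stayed near background in K562. PF4, the most abundant platelet alpha-granule chemokine, was listed at the lowest value of the table, 2.25, on all 3 K562 arrays, whereas in HEL cells it read 13.34 with PMA and 6.50 untreated. GP9 and SELP were likewise at 2.25 on the 3 K562 arrays, and GP5, CD226 and THBS1 were under 5. GP1BA, the von Willebrand factor receptor, reached 5.43 with PMA, against 4.62 and 4.46. Of the factors that drive late megakaryocyte genes, FLI1 was under 5 on every K562 array, while in HEL cells it read 9.69 with PMA and 10.78 untreated. The factor NFE2 was present in K562 and lower by fold, at 9.91 with PMA, against 11.42 and 10.58 untreated.

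**Figure D2:**
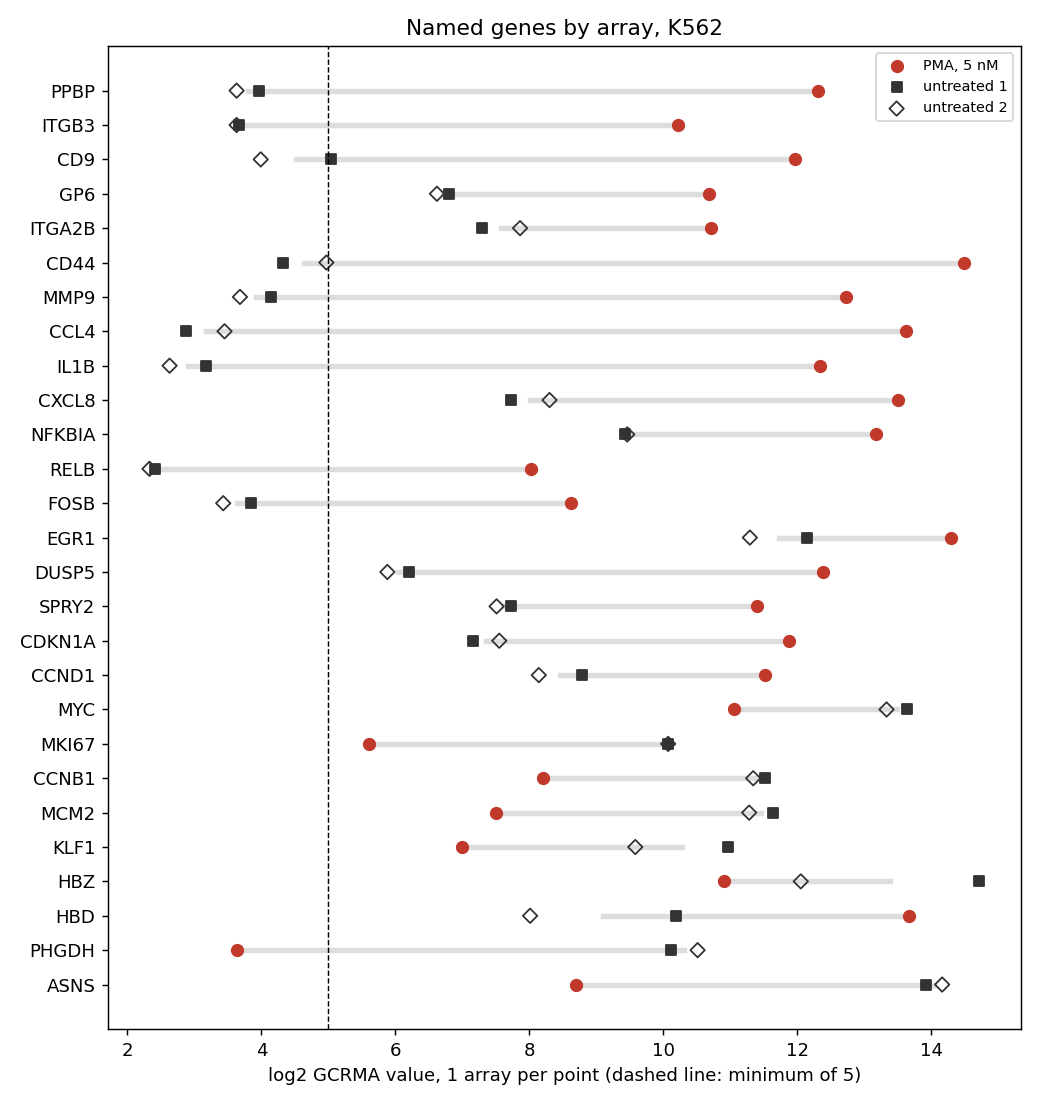
Log2 values of 27 named genes on each K562 array: PMA (red circle) and the untreated arrays (square and diamond), with a grey bar between PMA and the untreated mean and a dashed line at the minimum of 5. PPBP, ITGB3, CD44, MMP9, CCL4 and IL1B lie at or below that line in the untreated arrays, within 0.65 of each other, and above 10 with PMA.

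Genes of adhesion and of the actin skeleton moved with them. Of 28 measured (32 listed), 20 were higher and 0 lower by fold, and 10 rose in limma, with a median of 1.78. Among the 28, 3 reached 5 on the PMA array alone and so could only be higher. CD44, the hyaluronan receptor, read 14.48 with PMA, against 4.32 and 4.97 untreated, a rise of at least 9.48, and each of its 8 probe sets was higher by 6.22 to 10.75. MYLK, the kinase that phosphorylates myosin light chain, rose by at least 5.70, and the light chain MYL9 by at least 4.45. The non-muscle myosin MYH9 read 11.13 with PMA, against 8.23 and 7.99, and tropomyosin TPM4 12.55, against 9.68 and 9.68; both rose. GSN, which severs actin filaments, read 11.97 with PMA, against 8.21 and 6.82, and the focal adhesion protein ZYX 12.31, against 9.99 and 8.61; their untreated arrays differed by more than 1, and neither passed limma (adjusted p = 0.0618 and 0.0631). LMNA, the nuclear lamin, rose to 12.36, against 10.04 and 9.36, and the alpha-actinins ACTN1 and ACTN4 rose by 1.82 and 1.17. VIM, TPM1, CTTN and LCP1 differed by less than 1. ITGA2, the alpha-2 chain of the collagen receptor, stood at 2.25 in both untreated arrays and at 9.23 with PMA, a rise of at least 4.23, and ITGAV and ITGB5 rose by 3.12 and 1.98. ITGB1, the beta chain that pairs with most of these, read 13.82 with PMA, against 12.84 and 13.20 (adjusted p = 0.196).

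Feedback and early response genes of the PMA signal were mostly higher 48 h after it was given. Of 13 measured genes for protein kinase C and other proteins that bind phorbol ester or handle its signal, 3 were higher by fold (23.1%, against 16.6% of all genes) and 0 lower. Only PRKCD, a calcium-independent isoform, rose in limma, to 7.53 with PMA, against 5.55 and 5.26. PRKCA read 10.81 with PMA, against 9.17 and 9.95, and PRKCB 12.09, against 11.58 and 11.50. RASGRP3 was under 5. In the list of MAP kinase feedback genes, 10 of 14 were higher by fold, 0 lower, and 8 rose in limma (median 2.61). Only the PMA array brought 2 of the 14 to the minimum of 5, so these could only be higher. With no minimum, 2 of 16 rose. DUSP5, a nuclear ERK phosphatase, rose to 12.38 with PMA, against 6.20 and 5.88. SPRY2, an inhibitor of receptor signalling to RAS, rose to 11.39, against 7.73 and 7.51. DUSP1, DUSP4, DUSP7, DUSP8, SPRY1 and ERRFI1 also rose. DUSP6, the cytoplasmic ERK phosphatase, was under 5 on all 3 arrays, whereas HEL cells read 12.21 with PMA and 9.33 untreated.

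Early response factors were mostly higher at 48 h. Of 18 measured, 13 were higher by fold and 0 lower, and 9 rose in limma, against 4 of 20 with no minimum and 5 with values under 5 raised to 5. The PMA array alone brought 1 of the 18 to the minimum. EGR1 read 14.29 with PMA, against 12.15 and 11.29, and EGR3 6.67, against 2.30 and 2.28; both rose. NR4A2, an orphan nuclear receptor, rose to 10.72 with PMA, against 6.78 and 7.32. PHLDA1 rose to 13.53, against 8.61 and 6.67. SRF, KLF2, IER2 and KLF10 differed by less than 1. Of 12 AP-1 subunits, 8 were higher and 3 lower by fold, and 2 of the 12 reached 5 on the PMA array alone. FOSB rose to 8.62 with PMA, against 3.84 and 3.43, FOS to 8.61, against 5.05 and 3.78, and JUNB to 12.06, against 8.66 and 7.44. FOSL2 rose by at least 1.38. JUN, whose product pairs with FOS, was 9.26 with PMA, against 7.70 and 8.34 (adjusted p = 0.0912). The subunits on the low side were JDP2, BATF3 and ATF3, which act mainly as repressors, and none passed limma. JDP2 read 2.38 with PMA, against 8.20 and 7.36 (adjusted p = 0.111), BATF3 3.74, against 5.72 and 7.56 (adjusted p = 0.134), and ATF3 7.49 with PMA, against 9.39 on each untreated array (adjusted p = 0.303).

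The AP-1 site was first described as the element through which genes answer to TPA, another name of PMA. Its core TGANTCA (N is any base; the motif is its own reverse complement up to that base, so both strands were searched) lay in the promoter, the stretch from 250 bases before to 50 after the start, of 74 of 1328 genes called higher (5.57%), of 39 of 1473 called lower (2.65%) and of 344 of all 8219 tested genes with a RefSeq promoter (4.19%). Of the genes called higher in K562 that were also 2-fold higher in HEL, 21 of 284 held it (7.39%). It was in 0 of 17 promoters of the NF-kappaB list and in 1 of 9 of the chemokine and cytokine list (11.1%). For AGATAA, the core bound by GATA factors, the shares were 6.02% of higher, 4.28% of lower and 4.83% of all. For CCGGAAG, an ETS core, they were 15.2%, 20.5% and 21.8%. A match shows only the letters in the window. The 4 promoters below belong to genes among those 21, with K562 differences of 6.39, 5.49, 5.31 and 5.15 in the order printed. Not all 21 were considered for printing, so others among them may differ by more. The 4 promoters are shown so that the position of the AP-1 core can be seen. They are the 250 bases before the RefSeq start on build GRCh38.p14, 5′ to 3′ on the strand of the gene, with the core in capitals. VEPH1 lies at chr3:157503417-157503666 on the minus strand, with its core starting 53 bases before the start. CXCL8 lies at chr4:73740319-73740568 on the plus strand (137 bases), ECM1 at chr1:150507859-150508108 on the plus strand (204 and 78 bases) and GBP3 at chr1:89022867-89023116 on the minus strand (23 bases).
VEPH1: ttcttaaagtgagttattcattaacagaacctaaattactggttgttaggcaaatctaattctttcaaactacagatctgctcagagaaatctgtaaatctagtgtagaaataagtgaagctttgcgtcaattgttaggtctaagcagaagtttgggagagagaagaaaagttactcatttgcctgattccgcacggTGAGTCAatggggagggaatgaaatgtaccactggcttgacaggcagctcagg
CXCL8: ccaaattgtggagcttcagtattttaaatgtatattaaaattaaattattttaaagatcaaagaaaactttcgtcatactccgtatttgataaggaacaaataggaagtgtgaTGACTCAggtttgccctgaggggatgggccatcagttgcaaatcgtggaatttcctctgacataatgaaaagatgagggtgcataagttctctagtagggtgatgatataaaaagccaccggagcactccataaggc
ECM1: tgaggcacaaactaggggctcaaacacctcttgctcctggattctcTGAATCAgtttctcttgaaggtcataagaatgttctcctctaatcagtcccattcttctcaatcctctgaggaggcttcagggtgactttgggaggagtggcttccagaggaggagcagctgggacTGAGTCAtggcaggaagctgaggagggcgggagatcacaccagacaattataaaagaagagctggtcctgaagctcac
GBP3: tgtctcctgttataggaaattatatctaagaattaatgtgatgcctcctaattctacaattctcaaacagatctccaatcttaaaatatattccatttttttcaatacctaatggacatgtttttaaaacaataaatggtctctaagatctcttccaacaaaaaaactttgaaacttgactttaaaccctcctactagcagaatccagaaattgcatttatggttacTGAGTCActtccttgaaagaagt

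NF-kappaB genes were mostly higher. Of 19 measured, 18 were higher by fold and 12 rose in limma, with a median of 2.82. The minimum of 5 set the side of 3 of the 19, which reached it on the PMA array alone. The list holds NF-kappaB subunits and the inhibitors and targets that the factor switches on. NFKBIA, the inhibitor that holds NF-kappaB in the cytoplasm, rose to 13.17 with PMA, against 9.42 and 9.46. RELB, a subunit of the non-canonical pathway, rose to 8.03, against 2.41 and 2.33, and NFKB1 to 10.16, against 7.90 and 8.14. BCL2A1, an anti-apoptotic target, was at 2.25 in both untreated arrays and at 10.56 with PMA, a rise of at least 5.56. TRAF1 rose by at least 4.60 and ICAM1, the ligand of leukocyte integrins, by 4.23. TNFAIP3, the A20 deubiquitinase, read 9.87 with PMA, against 5.91 and 7.01, and missed the limma threshold (adjusted p = 0.158). Only NFKBIB was neither, at 7.25, against 7.25 and 6.43.

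Secreted factors had the highest median of all lists by the values as listed, 5.46 over the 16 of 30 measured, with 14 higher by fold and 11 rising in limma. On both untreated arrays 8 of the 16 read under 5, so the size of this median rests in part on values near background. Of the 16, 7 reached 5 on the PMA array alone and so had to differ; with no minimum the median was 5.22 over 18. CCL4, a chemokine that attracts monocytes and T cells, read 13.62 with PMA, against 2.88 and 3.45 untreated, a rise of at least 8.62. IL1B rose to 12.33, against 3.18 and 2.63. CCL5, a chemokine also stored in platelets, rose to 10.38, against 2.25 in both. These 3 transcripts were near the bottom of the scale without PMA. CXCL8, the neutrophil attractant, was present before and rose to 13.50, against 7.73 and 8.30. The platelet growth factor chain PDGFB rose by at least 4.66 and PDGFA by 3.66. IL6 read 9.71 with PMA, against 5.31 and 7.61, so that the untreated arrays differed by more than 2 between themselves (adjusted p = 0.188). VEGFA read 12.70, against 12.63 and 13.21. Of 8 measured proteases and inhibitors 7 were higher by fold and 6 rose, and 1 of the 8 reached 5 on the PMA array alone. MMP9, the gelatinase of macrophages and neutrophils, rose to 12.73 with PMA, against 4.15 and 3.68, and PLAUR, the urokinase receptor, to 12.45, against 7.34 and 8.31. Genes with a value of at least 8 on the higher side were also ranked by the difference as listed. Others among the 20 largest were PTGS2, the inducible cyclooxygenase (10.82 with PMA, against 3.03 and 2.53), HPSE, the heparanase of platelets (9.83, against 2.25 and 2.25), and ITGB1BP2, which encodes the integrin-binding protein melusin (11.20, against 3.17 and 3.17). All 3 rose. TRBV27, a T cell receptor beta segment, rose to 12.14, against 3.44 and 4.72. TNFRSF9, the co-stimulatory receptor 4-1BB, rose to 9.95, against 2.78 and 2.46, and SERPIND1, the thrombin inhibitor heparin cofactor II, to 9.30, against 2.25 and 2.25. ATP9A, a phospholipid flippase, rose to 10.11, against 2.26 and 2.26, HOMER2, a scaffold protein, to 9.48, against 2.25 and 2.25, and PAEP, a secreted lipocalin, to 10.46, against 3.35 and 2.43. The 20 largest rises by this ranking all started from a mean under 5 in untreated cells.

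On the low side, the genes of cell division fell together. All 29 measured mitosis genes were lower by fold, 28 of them fell in limma and the median was -3.82. MKI67, the proliferation antigen, fell to 5.60 with PMA, against 10.07 and 10.07. CCNB1, the mitotic cyclin, fell to 8.21, against 11.51 and 11.34, and CDK1, its kinase, to 9.10, against 12.52 and 12.68. KIF20A, a kinesin of the late spindle, fell to 3.33, against 9.11 and 8.89, and CENPE, a kinetochore motor, to 4.02, against 8.79 and 9.49, so that both were under 5 with PMA. AURKA read 10.22, against 11.43 and 11.73 (adjusted p = 0.0516). The untreated arrays differed from each other by a median of 0.17 over the list.

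Of 31 DNA replication genes, 29 were lower by fold, and all 29 fell in limma (median of the list -2.77). MCM2, a subunit of the replicative helicase, fell to 7.50 with PMA, against 11.64 and 11.28, and CDC45, its activator, to 6.59, against 11.12 and 11.03. PCNA, the sliding clamp, fell to 10.16, against 13.03 and 13.23. The exceptions were RFC1, which differed by less than 1, and RFC5, whose 3 probe sets ranged from -2.14 to 0.94. In the list of G1 regulators the members went both ways by fold. Of 18, 4 were higher (22.2%, against 16.6% of all genes) and 7 lower (38.9%, against 18.2%). CDKN1A, the p21 inhibitor, rose to 11.87 with PMA, against 7.16 and 7.55. CCND1 rose to 11.52, against 8.78 and 8.14. MYC fell to 11.05, against 13.63 and 13.33, and E2F2 fell by 2.77, RBL1, a pocket protein of the RB family, fell to 4.57, against 7.81 and 7.68, CDK4 fell by 1.63 and CCNE2 fell by 2.07. CDKN1C read 12.61, against 8.26 and 10.37 (adjusted p = 0.0946). Of 19 ribosome biogenesis genes, 12 were lower by fold and 3 fell in limma: NOLC1, FBL and WDR12, by 2.13, 2.07 and 1.31.

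The 20 largest differences on the low side, again among genes with at least 8 on the higher side, held genes that are on none of the lists. CDCA7, a chromatin factor and MYC target, fell to 4.96 with PMA, against 11.61 and 11.80, and CDCA7L, its relative, to 4.41, against 9.95 and 9.81. KIF15, a spindle kinesin, fell to 2.91, against 8.54 and 8.88, SPC25, of the kinetochore, to 6.66, against 11.75 and 12.16, and NCAPH, of condensin, to 4.72, against 9.65 and 9.61. LEF1, the nuclear partner of beta-catenin, fell to 4.22, against 9.83 and 10.03. CSTA and S100P, a protease inhibitor and a calcium-binding protein, read 2.31, against 7.82 and 10.07, and 3.17, against 7.88 and 9.24; the untreated arrays differed by more than 1 for each, and neither passed limma (adjusted p = 0.116 and 0.156).

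A further list was added during the work, with its values in view: targets of ATF4, the factor of the amino acid and stress response, with the enzymes of serine synthesis. Of 31 measured, 29 were lower by fold and 0 higher, with a median of -2.90. In limma 5 fell, against 13 after quantile normalization, 14 after median centring, 14 with a minimum of 7, 10 with an intensity trend, 2 with values under 5 raised to 5 and 1 with no minimum. PSAT1, which makes phosphoserine, had the largest difference on the low side: 5.91 with PMA, against 12.92 and 12.54 (adjusted p = 0.0236). PHGDH, the first enzyme of the path, read 3.63 with PMA, against 10.11 and 10.51 (adjusted p = 0.0574), and ASNS, asparagine synthetase, 8.70, against 13.92 and 14.16 (adjusted p = 0.0533). ATF4 itself read 11.06, against 13.07 and 13.41 (adjusted p = 0.0628). These genes also differed between the hemin arrays that give limma its spread: the list's median difference from untreated was -0.11 at 25 µM and -1.85 at 50 µM, and -1.22 with DAC.

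Erythroid genes gave no single direction. KLF1, the red cell factor that opposes megakaryocyte fate, read 7.0 with PMA, against 10.96 and 9.58 (adjusted p = 0.0571). BCL11A, a repressor of gamma globin, fell to 3.34, against 6.84 and 7.52, and IKZF1 to 7.46, against 9.85 and 10.48. ZFPM1, the cofactor of GATA1, rose to 9.84, against 8.29 and 7.71, and GFI1B read 11.50, against 10.28 and 9.84 (adjusted p = 0.0506). The globins differed between the untreated arrays by a median of 1.77, the widest but 1 of all lists. HBZ, the embryonic alpha-like chain, read 10.91 with PMA, against 14.71 and 12.05, and HBD, the minor adult chain, 13.67, against 10.19 and 8.01; neither passed limma (adjusted p = 0.225 and 0.0654). HBQ1 fell to 5.72, against 8.16 and 8.12. Probe sets shared by both alpha-globin genes were lower by 0.46 to 0.82 and those shared by both gamma genes higher by 0.33 to 0.41, and for alpha the PMA array lay between the untreated arrays. In heme synthesis and iron handling 6 of 15 were lower by fold (40%, against 18.2% of all genes) and 1 higher (6.67%, against 16.6%). ABCB10, the mitochondrial transporter, fell to 8.45, against 11.03 and 11.01. Of 15 red cell membrane and blood group genes, ADD2 and XK fell by 3.33 and 1.38 and TMOD1 rose by 1.91.

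Smaller lists complete the account, beside 16.6% higher and 18.2% lower by fold over all genes. Of 14 BCL2 family genes, 7 were higher and 1 lower by fold, and BMF rose by at least 1.85 beside BCL2A1. Among the 14, 2 reached 5 on the PMA array alone. BCL2 read 5.93 with PMA, against 7.69 and 9.13 (adjusted p = 0.297). Of 14 interferon-stimulated genes 8 were higher by fold and 5 rose, with IRF7 at 8.84, against 5.59 and 5.69, and IFI27 at 7.36, against 2.26 and 2.25. IFI27 was also 8.98 with DAC. Of 12 cholesterol genes 4 were lower by fold, and SQLE rose to 14.96, against 13.47 and 13.23.

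The same treatment was given to HEL cells, whose arrays share no control array with the K562 comparison. Of 8897 genes measured in both lines, 569 (6.4%) were 2-fold higher and 441 (4.96%) 2-fold lower in HEL cells, where there was 1 array on each side. Of 1368 genes called higher in K562, 359 (26.2%) were also higher in HEL and 26 lower, and of 1622 called lower, 229 (14.1%) were lower in HEL and 19 higher. Seen from HEL, those 359 were 63.1% of its higher genes and those 229 were 51.9% of its lower genes. Beside these shares, 1368 of all 8897 genes were called higher in K562 and 1622 lower. Across the 8897 genes the differences correlated at 0.51 (Pearson) and 0.48 (Spearman), a description over genes that share probes, scale and labelling. CD44 was higher in HEL as well, at 13.35 with PMA and 8.54 untreated, as was MMP9, at 8.45 and 3.77, and PPBP, at 8.12 and 3.57. CDKN1A was 10.10 with PMA in HEL and 3.92 untreated, and MYC 12.18 and 13.62. CCL4 read 2.25 in both HEL arrays and CCL5 2.29 with PMA and 2.25 untreated. The fibrinogen receptor chains were already present in untreated HEL cells: ITGB3 read 8.34 with PMA and 7.30 untreated, and ITGA2B 12.88 and 12.16. RELB read 6.37 with PMA and 2.41 untreated, BCL2A1 6.98 and 2.25, and CXCL8 8.28 and 2.86. HBZ was 4.38 with PMA and 9.96 untreated, and KLF1 9.84 and 11.11. For PHGDH the HEL values were 7.25 with PMA and 9.52 untreated, and for PSAT1 10.84 and 12.48. Mitosis genes, lower by a median of 3.82 in K562, were lower by a median of 0.26 in HEL: MKI67 read 10.18 with PMA and 10.07 untreated. DNA replication had a median of -0.33 in HEL. A limma test of the difference between the lines, with the spread from the K562 pairs, called 0 of 8897 genes (lowest adjusted p = 0.057), with 1462 at an unadjusted p under 0.05. All 29 mitosis genes and 28 of 31 replication genes were among these, on the side of a lower PMA difference in K562 than in HEL. On the side of a higher PMA difference in K562 were 10 of 19 NF-kappaB genes. So were 7 of 18 platelet receptor and granule genes, with 1 of the 18 on the other side.

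**Figure D3:**
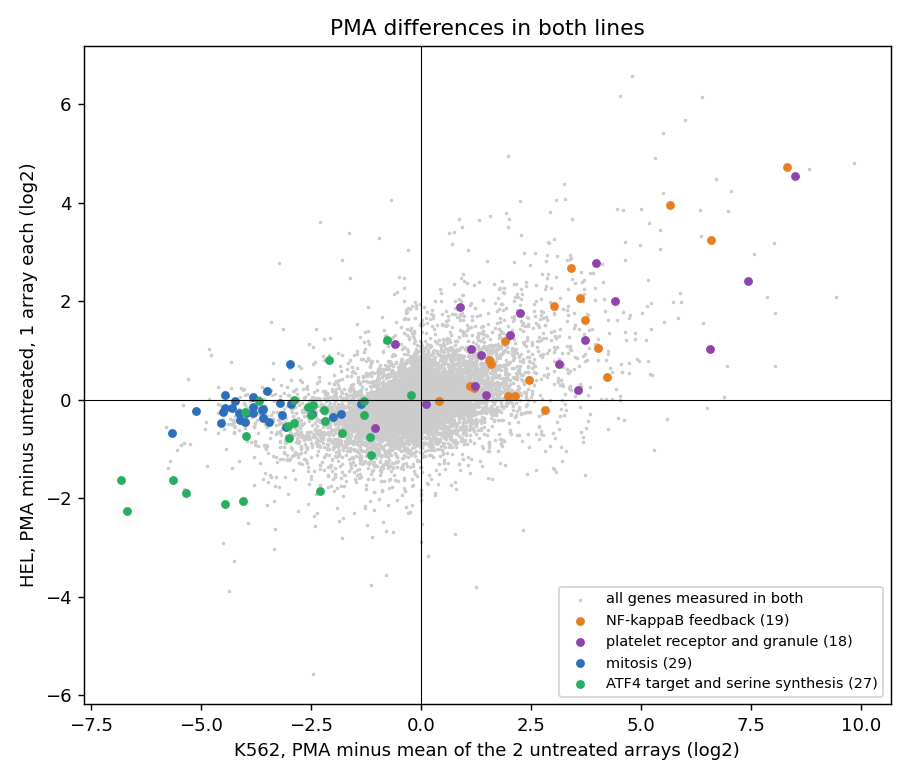
Each point is 1 of 8897 genes measured in both lines, with the PMA difference in K562 on the horizontal axis and that in HEL on the vertical axis, both log2; colours mark 4 lists. Mitosis genes spread along the K562 axis at a HEL difference near 0 (median -0.26), while most NF-kappaB genes lie in the upper right (HEL median 0.80).

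Hemin and DAC on K562 cells are set against the same untreated arrays, so the values stand side by side with no comparison drawn from them. The median of the NF-kappaB list was 2.82 with PMA, -0.18 and -0.28 with 25 and 50 µM hemin and 0.00 with DAC. For mitosis the medians were -3.82, 0.03, -0.28 and 0.13. For the globin list they were 0.59 with PMA, 1.60 and 2.09 with hemin and 2.26 with DAC.

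**Figure D4:**
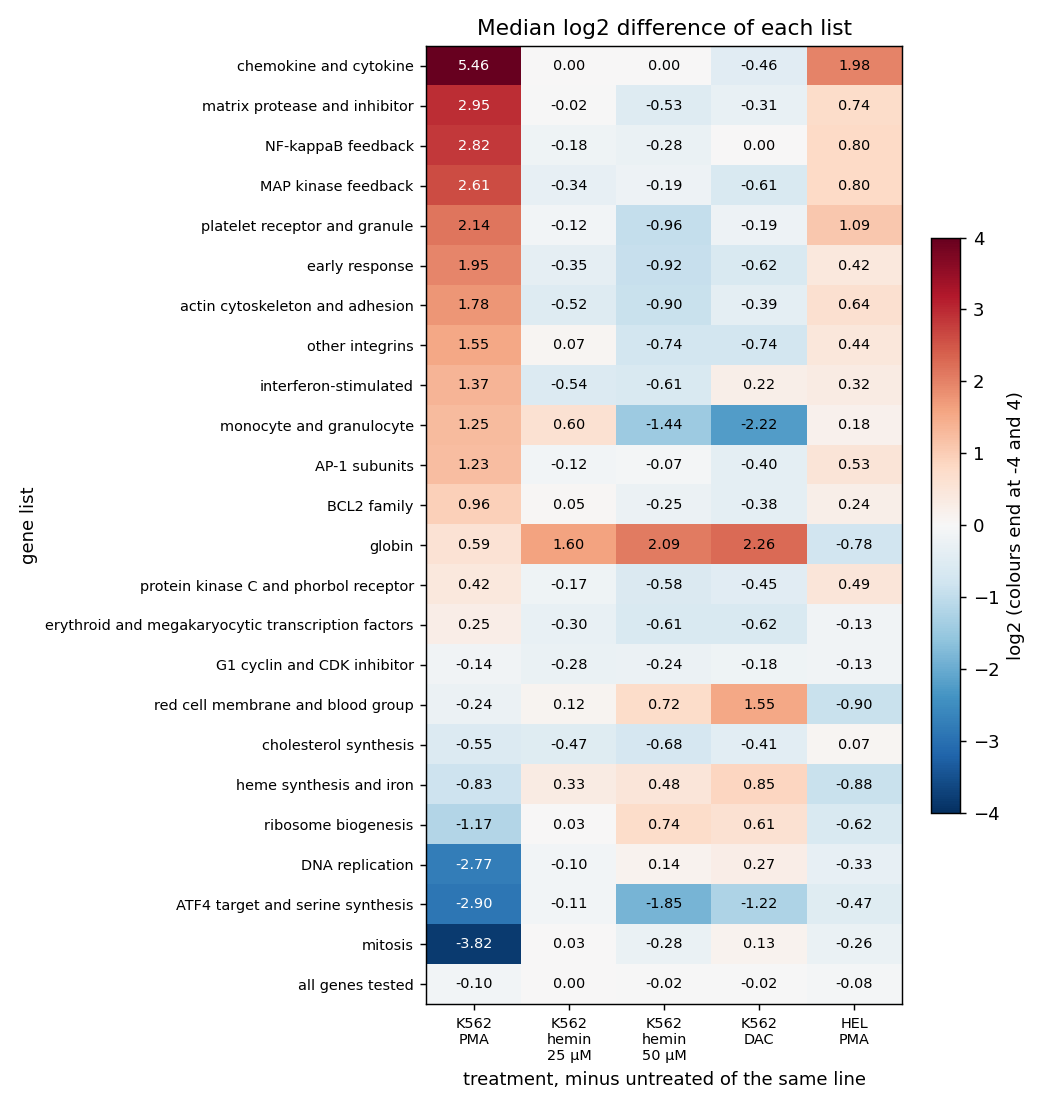
Median log2 difference of each gene list from the untreated cells of the same line, for K562 with PMA, hemin at 25 µM and 50 µM and DAC, and for HEL with PMA; red is higher and blue lower, with the value printed in each cell. By the values as listed, chemokines and cytokines have the highest PMA median in K562 (5.46) and mitosis the lowest (-3.82).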

How the data were processed

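Total RNA was labelled and hybridised to Affymetrix arrays. Per the labels, GCRMA turned the scans into the deposited log2 values; it removes background estimated from probe sequence, normalizes between arrays and summarises each probe set. Its version and how probe sets were selected are not given in the sources used here. The table held 27306 probe sets: 22858 named 1 gene, 1164 several (left out) and 3284 were unlisted. The lowest value, 2.25, is a floor. Array medians were 6.67 to 6.78. No raw intensities were used, and the number of arrays limits the precision.

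A probe set was kept at 5 or more on at least 1 K562 array (17615), and each gene was read from its kept probe set of highest mean over these arrays. Of 1496 called genes with several kept probe sets, 1427 had all of them on the same side and 7 had an opposed 2-fold difference. PMA minus the mean of the untreated arrays was called by the fold rule, and limma 3.58.1 (R 4.3.3) tested the 6 K562 arrays in 4 groups, both hemin doses as 1, with Benjamini-Hochberg adjustment over all genes. The procedure was tested on simulated data. There all 6 K562 arrays had the same means apart from differences added to PMA, so the pooling of the hemin doses was not tested. Named genes were list members, the 20 largest differences each way (with at least 8 on the higher side) and genes past limma. The members and lists were chosen with earlier results of these data known. Promoters are from RefSeq. Alternatives were quantile normalization, median centring, minima of 7 or none, averaged probe sets, other folds, an intensity trend and leaving out arrays; 2 (values under 5 raised to 5, and the test between lines) were chosen after seeing the data.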

Additional observations from a re-analysis of the deposited data

Results flagged for a closer look

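Among the list members and the 20 largest differences each way, 2 genes had opposite signs in the lines. Over all genes measured in both lines, 26 called higher in K562 were 2-fold lower in HEL and 19 called lower were 2-fold higher. CCNE2, the E2-type cyclin, was -2.07 in K562 (6.85 with PMA, against 9.11 and 8.71 untreated) and 1.25 in HEL (9.45 with PMA and 8.20 untreated); the adjusted p of the difference in limma was 0.0891. KLF6, an early response zinc finger factor, was 1.91 in K562 (11.82 with PMA, against 9.51 and 10.30 untreated) and -1.33 as listed in HEL (4.57 with PMA and 5.90 untreated) with an adjusted p of 0.252 in limma. Because 4.57 is under 5, the size of the HEL difference is not settled and may be less than 2-fold. Neither gene passes after adjustment.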

How the results depend on the processing

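The counts by fold, on the values as listed, followed the threshold. At 1.5-fold they were 2504 higher and 2869 lower, and at 4-fold 651 and 654. Under the nearer untreated array as reference, quantile normalization, median centring, a minimum of 7 or none, averaged probe sets, values under 5 raised to 5 (chosen after seeing the data) and leaving out either untreated array, they ranged from 1302 to 1756 higher and from 1491 to 2037 lower; without an untreated array they were 1650 to 1727 and 1761 to 2037. In limma the count was 1458 to 2003 under the other normalizations, minima, probe set choices, the intensity trend and the raised values, against 1664. It was 0 to 0 when an untreated or a hemin array was left out, 0 with the untreated and PMA arrays alone and 0 with each hemin dose as its own group, with lowest adjusted p-values of 0.0764 to 0.108; these fits have fewer residual degrees of freedom. No named gene that was called by fold changed sign under the alternatives run, and named genes that were not called were left out of that count. The median of the monocyte and granulocyte list, 1.25, was -0.18 without the first untreated array and 2.67 without the second. Of the 24 list medians, 11 others moved by more than the SD of the list's median level over the untreated arrays without the first untreated array, and 7 without the second. The G1 regulator median, -0.14, was 0.12 without the first, 0.15 with a minimum of 7 and 0.15 with none, and that of the red cell membrane list, -0.24, was 0.05 with averaged probe sets. Limma counts per list that moved by over 1.5 times and by 2 or more genes were those of the ATF4, MAP kinase feedback and early response lists, given above, of the interferon-stimulated list (5 higher, against 3 with a minimum of 7 and 3 with raised values), of the integrins (3 higher, against 5 with no minimum), and, with averaged probe sets, of the G1 regulators (2 higher, against 6) and the erythroid and megakaryocytic factors (1 higher, against 4). These leave aside the fits in which no gene passed. No paired analysis was possible because PMA has 1 array, so the groups share fewer than 2 replicate numbers. The single PMA array leaves its own variation unmeasured, and values under 5 give bounds only.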
